A study of Mus musculus with 8 samples.

Results

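The 8 genes described here govern how T cells leave or stay in lymphoid organs, and were examined in donor T cells from the spleen: the sphingosine-1-phosphate receptors S1pr1, S1pr2, S1pr4 and S1pr5, the transcription factors Klf2 and Klf3, the oxysterol receptor Gpr183 and the activation marker Cd69. They were chosen by name, and all 8 were found among the 25078 gene rows of the deposited tables. All 8 also passed the filter on low counts that left 12428 genes for testing, S1pr5 only through its counts in CD8 T cells. S1pr3, the remaining receptor for sphingosine-1-phosphate, is described beside them and is not counted among the 8.

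The samples came from a mouse model of hematopoietic cell transplantation (HCT) across a full MHC mismatch. Lethally irradiated WT BALB/c recipients received T cell-depleted bone marrow from WT C57BL/6 mice together with splenic T cells from C57BL/6 donors, and on day 6 the T cells of donor type were sorted from the spleen into CD4 and CD8 T cells. The donors were either WT or STAT3KO, that is, Stat3 fl/fl CD4-Cre mice, in which a Cre recombinase under Cd4 control deletes floxed Stat3 in CD4 and CD8 T cells alike. The 8 libraries form 4 groups of 2 replicates (CD4 T cells of WT and of STAT3KO donors, and CD8 T cells of the same), the ages of the mice were not given in the sources used here, and each library combined cells of several recipients, so that the errors below describe the spread between pools and not between single animals.

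Sphingosine-1-phosphate is a lipid kept high in blood and lymph and low within lymphoid tissue, and T cells follow that gradient out through S1PR1, whereas S1PR2 couples to inhibitory signals that hold cells in place, as in germinal centers. Transcription of S1pr1 is driven by KLF2, which falls when the antigen receptor is engaged, and CD69 binds S1PR1 and removes it from the cell surface, so that freshly activated T cells are retained. GPR183 guides lymphocytes toward oxysterols made by stromal cells at the edge of the T cell zone of the spleen and lymph node.

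The libraries held between 20171396 and 23282757 counts, so that the upper limit behind a count of 0, namely 3 counts, stood at 0.129 to 0.149 CPM on column totals. CPM denotes counts per library size; libraries were scaled by the TMM method, except for floors, markers of other cells and the summed S1pr5 levels, which use column totals. Stat3 itself was present at 436 and 428 CPM in WT CD4 T cells against 138 and 141 CPM in STAT3KO CD4 T cells, and at 431 and 436 CPM against 119.7 and 143 CPM in CD8 T cells, which matched the genotypes in the labels. Cd4 lay between 1361 and 1602 CPM in the CD4 libraries and between 1.04 and 8.16 CPM in the CD8 libraries. Among markers of other cells, 4 of 6 erythroid genes (the globins) were at 0 in every library and the list summed to at most 0.934 CPM. Of 6 dendritic cell markers, Clec9a and Siglech were at 0 in every library, and the list summed to 14.5 to 16.7 CPM in CD4 and 161 to 273 CPM in CD8 libraries, nearly all of it Itgax (13.1 to 15.7 CPM in CD4, 160 to 272 CPM in CD8). Of 5 NK cell markers, Klra8 and Klra4 were at 0 in every library, and the list summed to 16.1 to 28.7 CPM, mostly Klrb1c (13.9 to 26.2 CPM). The endothelial list, nearly all Pecam1, summed to 338 and 415 CPM in WT CD4 and 258 and 277 CPM in STAT3KO CD4. In CD8 it was 164 and 222 CPM in WT and 142 and 153 CPM in STAT3KO. B cell markers summed to 0.942 to 2.78 CPM in CD4 and 12.3 to 13.2 CPM in CD8, mostly Cd79b. Platelet markers summed to 8.72 CPM in STAT3KO CD8 replicate 2 and at most 2.63 CPM elsewhere. Neutrophil markers summed to 2.16 to 15.1 CPM. Of the 7 macrophage and monocyte markers, Csf1r, Vcam1, Adgre1, Lyz2 and Cd14 were higher in replicate 2 than in replicate 1 in each of the 4 groups, with Csf1r between 0.558 and 2.51 CPM in replicate 1 and between 11.8 and 18.7 CPM in replicate 2. The labels do not say what the replicate number stands for, although the serial numbers in the sample titles run in separate blocks for replicates 1 and 2. The sum of the 7 markers also differed by genotype among CD4 libraries (57.0 and 85.7 CPM in WT, 99.2 and 168 CPM in STAT3KO), mainly through Itgam, whereas it overlapped among CD8 libraries (154 and 225 CPM in WT, 187 and 241 CPM in STAT3KO). The part of these transcripts in the results below was not tested.

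Loss of STAT3 in CD4 T cells moved 2 of the 8 genes past the test, in opposite directions. S1pr2, the receptor that holds cells in place, fell by 0.79 on the log2 scale, and Klf3, a repressor of the Kruppel-like family, was raised by 0.76. Of the other genes expressed at high level, S1pr1, Klf2 and Gpr183 overlapped between the genotypes. S1pr4 (higher in STAT3KO) and Cd69 (lower) did not overlap and were not called. A gene was called when its Benjamini-Hochberg adjusted p in the edgeR quasi-likelihood test, taken over all 12428 genes, was under 0.05, and 11.6% of all genes tested were called in this comparison (6.54% higher and 5.08% lower). Values of the WT and STAT3KO replicates did not overlap for 5 of the 8 genes, against 53.5% of all genes tested. Without S1pr5, which rested on few counts, 4 of 7 genes did not overlap. The median log2 difference of the 8 genes was 0.04, beside 0.02 over all genes.

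In CD8 T cells 0 of the 8 genes were called by edgeR (1 at an unadjusted p under 0.05), where 2.07% of all genes were (1.34% higher and 0.732% lower). Across all genes 2400 had an unadjusted p under 0.05, and DESeq2 called 885 genes, Klf3 being the only one of the 8. WT and STAT3KO values did not overlap for S1pr2, S1pr5, Klf3 and Cd69, which is 4 of the 8 genes against 49.7% of all genes. S1pr5 rested on few counts and passed the filter only with its STAT3KO CD8 libraries, the group where it was highest. The filter thus favoured a higher STAT3KO value here, and its place in this count is a description. Without S1pr5, 3 of 7 genes did not overlap. The median log2 difference of the 8 genes was 0.09, beside -0.01 over all genes. The STAT3KO effect was also compared between CD8 and CD4 T cells by an interaction term. No gene was called there (0% of those tested, with 982 at an unadjusted p under 0.05; of the 8 genes 2 were at an unadjusted p under 0.05; DESeq2 called 188 genes, 0 of them among the 8), so a call in CD4 and not in CD8 T cells does not show that the effects differ.

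Between the cell types, S1pr2 and Cd69 were lower in CD8 than in CD4 T cells of both donor genotypes. S1pr5 was left out of these counts, because it passed the filter through its CD8 counts and therefore had to be higher there. Of the remaining 7 genes 2 were called in WT donors, where 23.8% of all genes were (12.2% higher and 11.6% lower), and 2 in STAT3KO donors, where 12.5% of all genes were (5.84% higher and 6.67% lower). Values of CD8 and CD4 T cells did not overlap for 6 of the 7 genes in WT, against 59.3% of all genes, and for 3 of the 7 in STAT3KO, against 58.3%. The median log2 difference between CD8 and CD4 T cells was -0.55 over the 7 genes in WT and -0.45 in STAT3KO, beside 0.00 over all genes in both. The CD4 and the CD8 libraries serve in several of these comparisons at once, so the comparisons are not independent of each other.

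**Figure D1:**
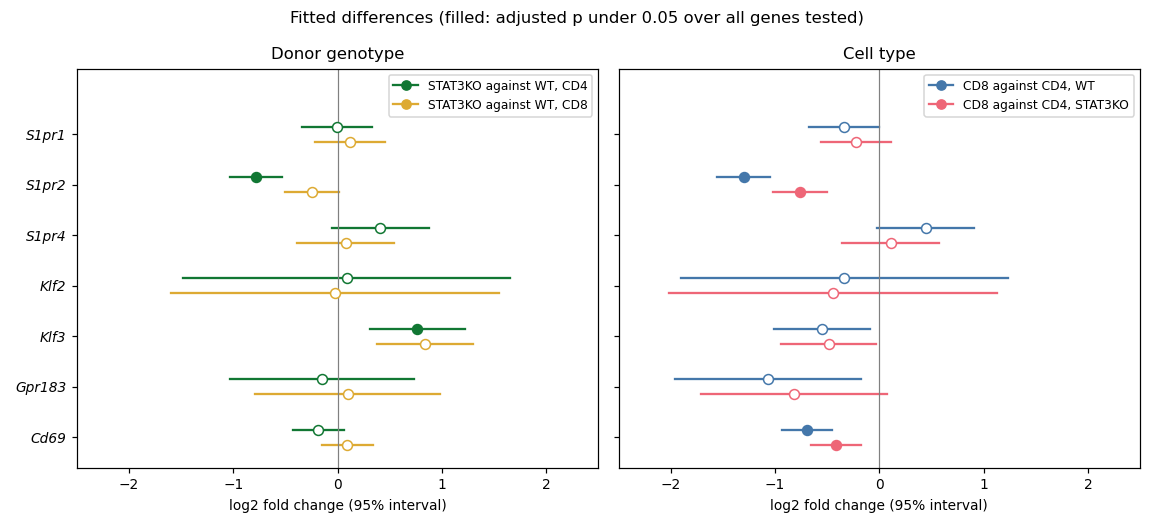
Fitted log2 fold changes (horizontal axis) with 95% intervals for 7 of the 8 genes, for the donor genotype on the left and the cell type on the right; filled symbols have an adjusted p under 0.05, and S1pr5 is left out because 1 group had no counts. S1pr2 lies left of zero in all 4 comparisons, Klf3 lies right of zero for genotype in both cell types, and the intervals of Klf2 are the widest.

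Compared per exon length, as RPKM, the 8 genes covered a wide range. Cd69 was first in all 4 groups by its mean (605 and 522 RPKM in CD4 T cells of WT and STAT3KO donors, 371 and 393 RPKM in their CD8 T cells), followed by Klf2 (319, 334, 252 and 246 RPKM) and S1pr1 (196, 192, 153 and 165 RPKM). The replicates of Klf2 and S1pr1 overlapped in every group, and those of Cd69 and Klf2 overlapped in STAT3KO CD4, so these neighbours do not differ beyond their spread there. S1pr4 and Gpr183 followed. Gpr183 ranked above S1pr4 in WT CD4 by a margin of 88.5 against 88.3 RPKM between their nearest replicates, the replicates overlapped in STAT3KO CD4, and in both CD8 groups S1pr4 stood above Gpr183 without overlap. Klf3 came sixth by its mean in every group, overlapping Gpr183 in STAT3KO CD4 and STAT3KO CD8, S1pr2 seventh at 13.5, 7.67, 5.42 and 4.54 RPKM, and S1pr5 last, with at most 0.518 RPKM in any library. Among all genes tested, the mean RPKM of Cd69 stood between percentiles 99.2 and 99.6, whereas S1pr2 went from percentile 57.7 in WT CD4 to 35.5 in STAT3KO CD8. RNA levels of a sorted population cannot tell fewer expressing cells from less RNA per cell.

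**Figure D2:**
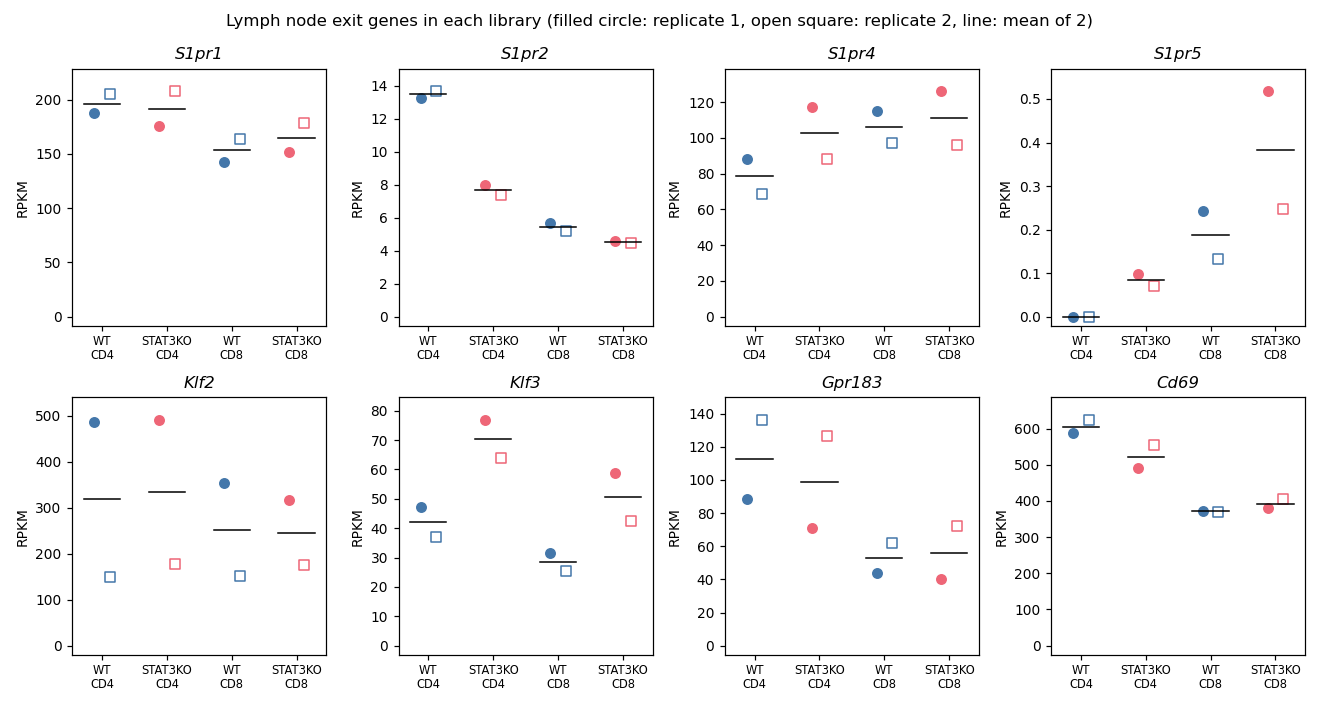
RPKM (vertical axis, linear, a separate scale for each gene) of the 8 genes in each of the 8 libraries, with filled circles for replicate 1, open squares for replicate 2 and lines for the mean of 2. S1pr2 steps down from WT CD4 to STAT3KO CD4 to the CD8 groups with replicates close together, whereas the replicates of Klf2 and Gpr183 lie far apart within each group.

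S1pr1, the receptor that carries T cells into blood and lymph, lies on chromosome 3 (mm10 chr3:115710433-115715055, minus strand). It was at 572 and 615 CPM in WT CD4, 539 and 646 CPM in STAT3KO CD4, 432 and 505 CPM in WT CD8, and 462 and 554 CPM in STAT3KO CD8. The genotypes overlapped in both cell types, and the CD4 values of WT stood above the CD8 values of WT. In CD4 T cells the fitted STAT3KO difference was -0.00 on the log2 scale with a 95% interval of -0.34 to 0.33 (edgeR adjusted p = 0.992); for CD8 T cells it was 0.12 with an interval of -0.22 to 0.45 (adjusted p = 0.731). Changes within these limits could not be detected here. Between CD8 and CD4 T cells of WT donors the log2 difference was -0.34 (interval -0.68 to -0.01, adjusted p = 0.132). It was -0.41 and -0.29 within replicate numbers 1 and 2, and edgeR with a term for the replicate number gave an adjusted p of 0.00530.

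S1pr2 curbs migration, marks follicular helper T cells and confines them to germinal centers; it lies on chromosome 9 (mm10 chr9:20965952-20976793, minus strand). It was at 37.7 and 38.2 CPM in WT CD4, 22.8 and 21.3 CPM in STAT3KO CD4, 15.95 and 14.8 CPM in WT CD8, and 13.1 and 12.9 CPM in STAT3KO CD8. The replicates of each group lay close together, no groups overlapped, and the order ran from WT CD4 down to STAT3KO CD8. In CD4 T cells it averaged 37.9 ± 0.364 CPM in WT and 22.0 ± 1.07 CPM in STAT3KO (SD, n = 2), a level 1.72-fold lower in STAT3KO (log2 difference -0.79, SE 0.11, 95% interval -1.03 to -0.54, adjusted p = 0.00472). The call was lost without STAT3KO CD4 replicate 2 (log2 difference -0.74, adjusted p = 0.0535) and held in the other 15 alternatives.

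In CD8 T cells the S1pr2 mean went from 15.4 ± 0.797 to 13 ± 0.119 CPM, a log2 difference of -0.24 with an interval of -0.50 to 0.01 (adjusted p = 0.278). The difference between the 2 effects was 0.54 (interval 0.18 to 0.90), which did not pass adjustment over all genes (adjusted p = 0.350). S1pr2 was 2.46-fold lower in CD8 than in CD4 T cells of WT donors (log2 difference -1.30, SE 0.11, adjusted p = 0.000251) and 1.69-fold lower in STAT3KO donors (-0.76, SE 0.11, adjusted p = 0.00530). The latter call was lost without STAT3KO CD4 replicate 1 (adjusted p = 0.0532).

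The 250 bases before the annotated start of S1pr2 (RefSeq, GRCm38.p6, chr9:20976794-20977043, minus strand, 59.2% G or C) and of Klf3 (chr5:64803271-64803520, plus strand, 78.4% G or C) are printed 5′ to 3′ because these genes passed the test in CD4 T cells in opposite directions. Capitals mark matches on either strand to CACCC, the core of the element that Kruppel-like factors bind.
S1pr2: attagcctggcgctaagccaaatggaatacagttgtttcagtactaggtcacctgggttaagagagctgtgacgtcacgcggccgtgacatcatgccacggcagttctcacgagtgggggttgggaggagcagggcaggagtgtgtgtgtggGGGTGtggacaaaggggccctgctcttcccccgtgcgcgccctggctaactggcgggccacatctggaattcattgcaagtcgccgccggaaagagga
Klf3: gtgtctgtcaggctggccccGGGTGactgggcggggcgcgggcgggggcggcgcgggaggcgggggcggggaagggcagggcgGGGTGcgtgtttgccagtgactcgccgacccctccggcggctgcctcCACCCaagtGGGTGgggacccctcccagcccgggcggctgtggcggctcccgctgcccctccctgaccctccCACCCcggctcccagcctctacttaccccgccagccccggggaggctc
Windows of 300 bases, from 250 before to 50 after the start, were searched for 3 motifs on both strands; the table held such windows for 6 of the 8 genes (S1pr2, S1pr4, S1pr5, Klf2, Klf3 and Gpr183). CACCC occurred 5 times in Klf3, 2 times in S1pr5, 1 time each in S1pr2, S1pr4 and Klf2, and 0 times in Gpr183. At least 1 match is found in 57.5% of the 32851 promoter windows, and at least 5 in 1.02%. The palindromic STAT element TTCNNNGAA and the FOXO element TGTTTAC had 0 matches in the 6 windows, where 8.30% and 3.65% of all promoter windows hold them. A match or its absence describes the letters of these windows only.

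S1pr4 is a receptor of hematopoietic cells that modulates T cell migration and cytokine output, and its single exon lies on chromosome 10 (mm10 chr10:81497745-81500137, minus strand). It was at 213 and 163 CPM in WT CD4, 283 and 217 CPM in STAT3KO CD4, 275 and 236 CPM in WT CD8, and 304 and 235 CPM in STAT3KO CD8. Replicate 1 was above replicate 2 in each group. The genotypes did not overlap in CD4 T cells, by a narrow margin, and overlapped in CD8 T cells. The log2 difference was 0.41 in CD4 (interval -0.05 to 0.87, adjusted p = 0.235) and 0.08 in CD8 T cells (interval -0.39 to 0.54, adjusted p = 0.888), neither of them called. Within replicate numbers 1 and 2 the CD4 difference was 0.41 in both, and edgeR with a term for the replicate number gave an adjusted p of 0.00311.

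S1pr5 carries NK cells and terminal effector T cells out of tissue; it lies on chromosome 9 as well, 266.1 kb from S1pr2 (mm10 chr9:21242917-21248443, minus strand). It was the lowest of the 8 genes, with 0 counts in both WT CD4 libraries, 5 and 4 counts in STAT3KO CD4, 14 and 8 counts in WT CD8, and 27 and 14 counts in STAT3KO CD8. No WT CD4 library held a count, and the highest value was in STAT3KO CD8 replicate 1. Summed over 2 libraries, this was 0.213 CPM in STAT3KO CD4 (exact 95% Poisson interval 0.0973 to 0.404), 0.475 CPM in WT CD8 (0.298 to 0.720) and 0.941 CPM in STAT3KO CD8 (0.675 to 1.28), intervals that cover counting error only. Against the floor of 3 counts over the WT CD4 group, these levels were at least 2.89-fold, 6.45-fold and 12.8-fold higher, taking each level as counted and leaving out its own counting error.

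The CD8 against CD4 difference of S1pr5 is given by these levels alone, without a test. The STAT3KO against WT difference was not called in CD4 (adjusted p = 0.0568, and 0.0375 without the filter on low counts) or in CD8 T cells (log2 difference 1.03, interval -0.33 to 2.39, adjusted p = 0.392). The CD8 value is a description, because S1pr5 passed the filter only with its STAT3KO CD8 libraries. About 2.04% of the exon bases of S1pr5 in GENCODE overlap an unclassified transcript on the opposite strand. S1pr3, the receptor not among the 8, had 27 and 8 counts in WT CD4, 74 and 47 counts in STAT3KO CD4, and between 0 and 4 counts in each CD8 library. Its log2 difference in CD4 T cells was 1.76 with an interval of -0.26 to 3.78 (adjusted p = 0.240).

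Klf2 keeps T cells in a recirculating state by driving S1pr1, and lies on chromosome 8 (mm10 chr8:72319062-72321654, plus strand). It was at 892 and 271 CPM in WT CD4, 903 and 331 CPM in STAT3KO CD4, 642 and 279 CPM in WT CD8, and 581 and 325 CPM in STAT3KO CD8. In each group replicate 1 was far above replicate 2, and the genotypes overlapped. The ratio of replicate 1 to replicate 2 was 3.30, 2.73, 2.30 and 1.79 in these groups, which placed the replicate gap of Klf2 at percentiles 98.3, 96.7, 95.1 and 92.4 of the gaps of all genes tested. The fitted STAT3KO difference was 0.09 in CD4 (interval -1.48 to 1.66, adjusted p = 0.954) and -0.02 in CD8 T cells (interval -1.59 to 1.55, adjusted p = 0.990). With intervals this wide, this fit, which had no term for the replicate number, could not detect a change of several fold in either direction. With such a term the differences were 0.14 in CD4 and 0.05 in CD8 T cells. Within replicate number 1 the log2 differences were 0.02 in CD4 and -0.14 in CD8, and within replicate number 2 they were 0.29 and 0.22. The macrophage markers Csf1r, Vcam1, Adgre1, Lyz2 and Cd14 were higher in replicate 2, opposite to Klf2. Their part in the gap was not tested.

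Klf3 binds the same CACCC elements as KLF2, largely as a repressor, and lies on chromosome 5 (mm10 chr5:64803523-64830129, plus strand). It was at 110.2 and 85.1 CPM in WT CD4, 179.9 and 152 CPM in STAT3KO CD4, 73.4 and 59.5 CPM in WT CD8, and 137 and 100.3 CPM in STAT3KO CD8. Both STAT3KO replicates were above both WT replicates in each cell type. In CD4 T cells it averaged 97.6 ± 17.7 CPM in WT and 166 ± 20.0 CPM in STAT3KO (SD, n = 2), 1.70-fold higher in STAT3KO (log2 difference 0.76, SE 0.20, 95% interval 0.31 to 1.22, adjusted p = 0.0459). The call sat near the threshold and was lost in 9 of 16 alternatives, the direction being the same in all of them. Adjusted p was 0.0501 with the size factors of DESeq2 in edgeR, 0.0609 and 0.0599 with limma on log2 RPKM, and 0.0548, 0.220, 0.240, 0.111, 0.0561 and 0.0531 without WT CD4 replicate 1, WT CD4 replicate 2, STAT3KO CD4 replicate 1, STAT3KO CD4 replicate 2, WT CD8 replicate 1 and WT CD8 replicate 2.

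In CD8 T cells Klf3 went from 66.5 ± 9.83 to 118 ± 25.7 CPM, 1.78-fold higher, with a log2 difference of 0.83 (SE 0.20, interval 0.37 to 1.29) that was as large as in CD4 T cells and was not called (adjusted p = 0.0799). DESeq2 gave an adjusted p of 0.00269, edgeR without the filter on low counts 0.0272 and edgeR with a term for the replicate number 0.000280. Within replicate numbers 1 and 2 the difference was 0.90 and 0.75 in CD8 and 0.71 and 0.83 in CD4 T cells. The difference between the effects was 0.07 (interval -0.58 to 0.71, adjusted p = 0.999). About 3.59% of the 11243 exon bases of Klf3 in GENCODE are shared with a transcript on the opposite strand. The deposited exon length of Klf3 is 2314 bases, and the share over those was not computed. Whether the counting used the strand was not given in the sources used here. Between CD8 and CD4 T cells the log2 difference was -0.55 in WT (adjusted p = 0.0831) and -0.48 in STAT3KO (adjusted p = 0.156), the CD4 values lying above the CD8 values without overlap.

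Gpr183, also known as EBI2, positions activated CD4 T cells and dendritic cells along oxysterol gradients. It lies on chromosome 14 (mm10 chr14:121952331-121965193, minus strand). It was at 262 and 397 CPM in WT CD4, 212 and 382 CPM in STAT3KO CD4, 129 and 186 CPM in WT CD8, and 118 and 218 CPM in STAT3KO CD8. Replicate 2 was above replicate 1 in each group, opposite to Klf2, by 1.51-fold, 1.80-fold, 1.44-fold and 1.85-fold. The genotypes overlapped in both cell types, with a log2 difference of -0.15 in CD4 (interval -1.03 to 0.73, adjusted p = 0.846) and 0.10 in CD8 T cells (interval -0.79 to 0.98, adjusted p = 0.933). Within replicate number 1 the differences were -0.31 and -0.13, and within replicate number 2 they were -0.06 and 0.23. The CD8 values of WT lay below the CD4 values (log2 difference -1.07, interval -1.96 to -0.17), which did not pass the test (adjusted p = 0.0854). Within replicate numbers 1 and 2 that difference was -1.02 and -1.10, and edgeR with a term for the replicate number gave an adjusted p of 1.74e-05. The labels do not tie these numbers to a shared source.

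**Figure D3:**
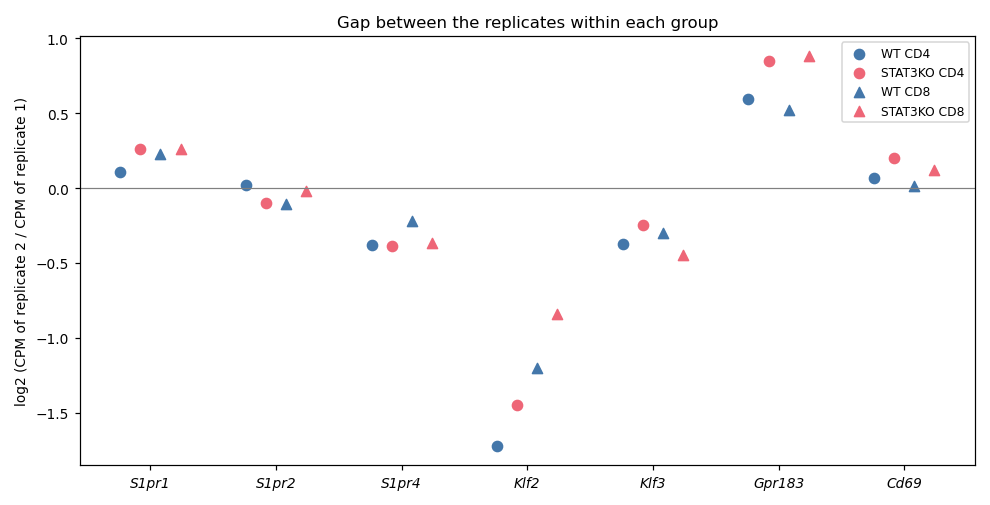
log2 ratio of replicate 2 to replicate 1 in CPM (vertical axis) for 7 of the 8 genes, by group; circles are CD4, triangles CD8, blue WT and red STAT3KO. Klf2 lies between -1.72 and -0.84 in all 4 groups and Gpr183 between 0.52 and 0.88, while S1pr2 stays within 0.11 of zero.

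Cd69, an early activation marker that also retains T cells in tissue, lies on chromosome 6 (mm10 chr6:129267324-129275369, minus strand). It was at 958 and 1002 CPM in WT CD4, 804 and 922 CPM in STAT3KO CD4, 603 and 609.6 CPM in WT CD8, and 619.7 and 674 CPM in STAT3KO CD8. The CD4 libraries were all above the CD8 libraries, and within each cell type the genotypes did not overlap, WT being the higher in CD4 and the lower in CD8 T cells. Those genotype differences were small and not called: -0.18 on the log2 scale in CD4 (interval -0.43 to 0.06, adjusted p = 0.308) and 0.09 in CD8 T cells (interval -0.15 to 0.33, adjusted p = 0.702). Their difference was 0.28 (interval -0.07 to 0.62, adjusted p = 0.755).

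Cd69 was 1.62-fold lower in CD8 than in CD4 T cells of WT donors (log2 difference -0.69, SE 0.10, adjusted p = 0.00283), a call kept in all 16 alternatives. In STAT3KO donors it was 1.33-fold lower (-0.42, SE 0.10, adjusted p = 0.0399), and this call was lost in 10 of 16 alternatives. Adjusted p was between 0.0509 and 0.0749 with no filter on low counts, with limma on log2 RPKM and with the 4 STAT3KO libraries alone, and 0.0828, 0.210, 0.0621, 0.0619, 0.187 and 0.103 without STAT3KO CD4 replicate 1, STAT3KO CD4 replicate 2, WT CD8 replicate 1, WT CD8 replicate 2, STAT3KO CD8 replicate 1 and STAT3KO CD8 replicate 2.

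The pathways around these genes were described by lists whose members were taken from general knowledge, with earlier results of these data known. Their counts are therefore a description and not an independent test. They are read beside the shares of all genes tested. Those were 6.54% called higher and 5.08% lower in CD4 T cells, and 1.34% and 0.732% in CD8 T cells. Among the enzymes and transporters of sphingosine-1-phosphate, 1 of 7 tested genes was called higher in STAT3KO CD4 T cells and 0 in CD8 T cells by edgeR (2 at an unadjusted p under 0.05, 0 by DESeq2), against 6.54% and 1.34% of all genes. It was Plpp1, a lipid phosphate phosphatase, at 0.798 and 1.46 CPM in WT CD4 and 3.30 and 4.89 CPM in STAT3KO CD4 (log2 difference 1.85, adjusted p = 0.0253). Of 17 tested genes of receptor signalling and desensitization, 1 was called lower in CD4 and 0 in CD8 T cells by edgeR (3 at an unadjusted p under 0.05 in CD8; DESeq2 called 5 genes of this list lower in CD4 and 1 in CD8). It was Gna12, a G protein subunit that couples to S1PR2, at 21.9 and 23.2 CPM in WT CD4 and 16.3 and 15.4 CPM in STAT3KO CD4 (log2 difference -0.51, adjusted p = 0.0430). In both lists the STAT3KO values of the named gene lay apart from the WT values.

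The FOXO1-KLF2 circuit with its homing genes had 15 tested members. In CD4 T cells 1 was called higher and 3 lower, where 6.54% and 5.08% of all genes were. In CD8 T cells 1 was called higher and 2 lower, where 1.34% and 0.732% were, and the list medians were -0.00 and 0.04 on the log2 scale, beside 0.02 and -0.01 over all genes. DESeq2 called 2 higher and 3 lower in CD4, and 2 higher and 2 lower in CD8 T cells. Itga4, the alpha 4 integrin chain that binds VCAM1 and MAdCAM1, was called higher in both cell types, at 1291 and 1124 CPM in WT CD4 against 2634 and 2622 CPM in STAT3KO CD4 (log2 difference 1.12, adjusted p = 0.000837), and by 0.58 in CD8 T cells (adjusted p = 0.0256). Tcf7, which encodes the stem-like T cell factor TCF1, was called lower, at 1452 and 1345 CPM in WT CD4 against 420.0 and 389 CPM in STAT3KO CD4 (-1.79, adjusted p = 0.00137), and by -1.12 in CD8 T cells (adjusted p = 0.0251). The genome organizer Satb1 was called lower as well (-1.45 in CD4, adjusted p = 0.00101; -1.15 in CD8, adjusted p = 0.0104). Lef1, a relative of Tcf7, was called lower in CD4 (-0.54, adjusted p = 0.0481) and had a log2 difference of 0.02 in CD8 T cells (adjusted p = 0.970).

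Among the other Kruppel-like factors, 2 of 10 tested genes were called lower in CD4 T cells and 0 in CD8 T cells by edgeR (2 at an unadjusted p under 0.05, 1 by DESeq2), with Klf3 and Klf2 not counted in this list; 5.08% of all genes were called lower in CD4 and 0.732% in CD8 T cells. Klf7 went from 13.8 and 13.5 CPM in WT CD4 to 8.10 and 8.32 CPM in STAT3KO CD4 (log2 difference -0.73, adjusted p = 0.0173), and Klf13, a regulator of chemokine genes in T cells, from 437 and 435 to 302 and 279 CPM (-0.59, adjusted p = 0.0107). Both therefore moved opposite to Klf3. Of the oxysterol enzymes and receptors around Gpr183, 4 were tested and 0 were called in either cell type by edgeR or DESeq2, with 0 at an unadjusted p under 0.05. Of 17 tested genes of early T cell activation, Icos, a costimulatory receptor, was the 1 called lower in CD4 T cells, at 2326 and 3162 CPM in WT and 1235 and 1399 CPM in STAT3KO (-1.06, adjusted p = 0.0153), and 0 were called in CD8 T cells by edgeR (1 at an unadjusted p under 0.05, 1 by DESeq2). Icos also belongs to the follicular helper list below. The activation list had a median of -0.14 (CD4) and -0.26 (CD8), beside 0.02 and -0.01 over all genes.

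The genes of follicular helper T cells, among which S1pr2 is a retention receptor, were called lower in 8 of 13 cases in CD4 T cells and in 3 of 13 in CD8 T cells, where 5.08% and 0.732% of all genes were. In this list 0 were called higher by edgeR or DESeq2, with DESeq2 calling 8 lower in CD4 T cells and 4 in CD8 T cells. The edgeR counts include Ascl2, which passed the filter on low counts only through WT CD4 and so had to be lower in STAT3KO CD4. It had 0 counts in CD8 T cells and could not be called there. The list medians were -1.06 and -0.28, beside 0.02 and -0.01 over all genes. Bcl6, the lineage factor of follicular helper T cells, was at 114 and 90.3 CPM in WT CD4 and at 21.1 and 23.0 CPM in STAT3KO CD4 (log2 difference -2.21, adjusted p = 0.00217), and its difference in CD8 T cells was -1.85 (adjusted p = 0.0257). Tox2, a nuclear factor of the same lineage, was at 284 and 228 CPM against 42.9 and 38.9 CPM in CD4 T cells (-2.65, adjusted p = 0.000729; -0.89 in CD8, adjusted p = 0.0476). Il4 and Ascl2, a cytokine and a factor upstream of CXCR5, were also called lower in CD4 T cells, at low levels: Il4 was at 9.68 and 3.40 CPM in WT and 1.40 and 0.777 CPM in STAT3KO, and Ascl2 at 1.20 and 0.756 CPM in WT and 0.10 and 0.137 CPM in STAT3KO. Il21, the cytokine that acts on germinal center B cells, was called lower in CD8 T cells (-1.06, adjusted p = 0.0155). The difference of S1pr2 in CD4 T cells, -0.79, lay next to that of Il21 (-0.70, adjusted p = 0.0107), the smallest of the called decreases of the list.

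**Figure D4:**
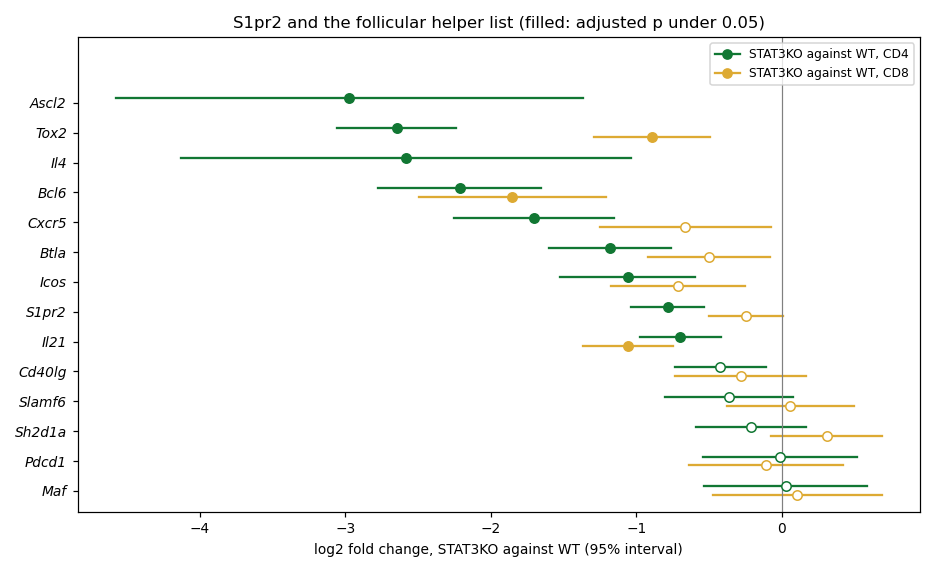
Log2 fold change, STAT3KO against WT (horizontal axis, with 95% intervals), of S1pr2 and the 13 follicular helper genes in CD4 (green) and CD8 T cells (yellow), ordered by the CD4 value; filled symbols have an adjusted p under 0.05. Ascl2 and Il4 are shown for CD4 T cells alone because their CD8 levels were at or under 0.135 CPM.

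The genes of terminal effector and resident T cells, the setting in which S1pr5 and Cd69 are best known, had 13 tested members, of which 4 were called higher and 1 lower in CD4 T cells and 0 in CD8 T cells by edgeR (3 at an unadjusted p under 0.05, 1 by DESeq2), with list medians of 0.43 (CD4) and 0.01 (CD8), beside 0.02 and -0.01 over all genes. In CD4 T cells 6.54% of all genes were called higher and 5.08% lower, and in CD8 T cells 2.07% were called. Klrg1, an inhibitory receptor of terminal effectors, went from 4.44 and 2.74 CPM in WT CD4 to 23.6 and 17.6 CPM in STAT3KO CD4 (log2 difference 2.52, adjusted p = 0.00812). Eomes, a T-box factor of cytotoxic cells, went from 3.74 and 2.27 to 13.5 and 11.0 CPM (2.03, adjusted p = 0.00551). Cxcr6, a chemokine receptor of resident cells, was also called higher (0.65, adjusted p = 0.0110). Prdm1, which encodes BLIMP1, went from 81.6 and 55.7 to 140.2 and 122 CPM (0.94, adjusted p = 0.0192). Zeb2, a repressor found in terminal effectors, moved the other way, from 9.43 and 10.2 to 3.15 and 5.53 CPM (-1.17, adjusted p = 0.0298). In these CD4 libraries Itgam, from the macrophage list, was higher in STAT3KO together with Klrg1, Eomes and Prdm1. The other markers of that list (Csf1r, Vcam1, Adgre1, Lyz2, Cd14 and Cd68) overlapped between the genotypes. Itgam was at 22.9 to 85.7 CPM in the CD4 and at 96.1 to 134 CPM in the CD8 libraries. The part of other cells in these differences was not tested.

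Across the 8 libraries the 8 genes did not share 1 pattern. S1pr1 and Gpr183 had the highest Pearson correlation of log2 CPM among them (r = 0.97), S1pr2 and Cd69 had r = 0.90, S1pr2 and S1pr5 had r = -0.96, and Klf2 and S1pr1 had r = -0.36. These values describe 8 libraries in 4 groups that share cell type, genotype and replicate number. Among 8748 other genes whose log2 CPM averaged 3 or more, those most like S1pr2 were Smco4, Fyn and Btbd6 (r = 0.99 each), and those most like Klf3 were Rbm6 (0.99), Irf9 (0.98) and Ppp1r12a (0.98). Klf2 was most like Hsp90aa1 (0.99), Gadd45a (0.99) and Sec24b (0.98), and Gpr183 most like Ctla4 (0.99), Phtf2 (0.99) and Jmjd1c (0.99). For S1pr1 they were Ninj1, Birc2 and Jmjd1c (0.99, 0.98 and 0.98), for S1pr4 Ccdc51, Sap30 and Nrarp (0.99, 0.98 and 0.97), for Cd69 Baz2b, Borcs8 and Ythdc1 (0.99 each), and for S1pr5, which rests on few counts, Cep128, Smc3 and Eme1 (1.00, 0.99 and 0.99).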

How the data were processed

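Donor CD4 and CD8 T cells were sorted from recipient spleens and sequenced as stranded mRNA libraries with 51 bp single-end reads. Per the study's methods, the authors aligned reads to mm10 with STAR and counted them per RefSeq gene with HTSeq; they deposited raw counts and, in a separate table, RPKM values (read counts per exon length and per library size). The kit named in the labels differs from that of the methods, and the labels' growth and treatment fields describe another cell system and were not used. The strand setting of the counting was not given in the sources used here.

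Groups and replicate numbers came from the labels. Counts were filtered with filterByExpr (minimum count 10, by group), scaled by TMM (factors 0.982 to 1.03) and fitted in edgeR 4.0.16 (R 4.3.3) by its two-sided quasi-likelihood test, with a mean per group over all 8 libraries and no covariate. CPM are counts after TMM scaling, except for floors, markers of other cells and summed S1pr5 levels, which use column totals. RPKM served to compare genes. P values were adjusted by Benjamini-Hochberg over 12428 genes, and intervals are 95% intervals of the same fit. The fit was tested on simulated counts. Alternatives were DESeq2 1.42.0, other scalings, no filter, a replicate block, the compared libraries alone, limma 3.58.1 on log2(RPKM + 1) and log2(RPKM + 0.1), and leaving out each library. Promoter sequences were RefSeq's (GRCm38.p6), and exon overlaps were taken from the GENCODE annotation of the same assembly.

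The 8 genes and all lists were chosen with earlier results of these data known. Named from each list were up to 4 called genes with the largest absolute log2 fold change in each STAT3KO comparison (Cxcr6, and Il21 in CD4 T cells, were named after their values were seen), and for each of the 8 genes the 3 genes most alike by Pearson r. Replicates differed by more than sampling noise, and no libraries were merged.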

Additional observations from a re-analysis of the deposited data

How the results depend on the processing

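Of 630 recomputed values of the 8 genes over 5 comparisons, 557 kept their direction and their side of the threshold, 23 lost a call, 16 gained one and 34 changed sign; the cause of these changes was not tested. S1pr5 rested on few counts, and the other 7 genes on at least 271 counts in each library. A lone replicate was assumed to vary like the other groups. RLE size factors and column totals shifted the all-gene median log2 difference by no more than 0.042.

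In CD4 T cells, the count of genes called in STAT3KO against WT (1444) was 412 to 1307 without single libraries, and the count among the 8 genes (2) was 0 to 2; it was 1 with RLE size factors and 1 with either limma setting. In CD8 T cells the count of genes (257) was 7 to 224 without single libraries, 885 with DESeq2, 454 with no filter and 37 with the 4 libraries alone, and the count among the 8 (0) was 0 without any single library and 1 with DESeq2 and with no filter. For the difference of effects (0 genes), DESeq2 called 188, no filter 44 and limma on log2(RPKM + 1) 13, and leaving out libraries gave 0 throughout. For CD8 against CD4 in WT (2960 genes, 3 of the 8 with S1pr5) the counts were 1546 to 2598 and 2 to 3 without single libraries, 1919 genes with the 4 libraries alone, and 5 of the 8 with no filter. In STAT3KO (1555 genes, 2 of the 8) they were 457 to 1554 and 0 to 2, and 1 of the 8 with no filter, with either limma setting and with the 4 libraries alone.

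The replicate block, whose replicate numbers are not tied to a shared source by the labels, raised the counts of genes called to 3747 (CD4), 2258 (CD8), 403 (difference of effects), 5232 (cell types in WT) and 3689 (cell types in STAT3KO), and of the 8 genes to 4, 1, 0, 7 and 5. The counts between cell types include S1pr5, which had to be higher in CD8 T cells. With the block, adjusted p was 0.00311 for S1pr4 and 0.0220 for S1pr5 in CD4, and 0.000280 for Klf3 in CD8. Between cell types it was 0.00530 for S1pr1 in WT, and 1.74e-05 and 0.000219 for Gpr183 in WT and STAT3KO. Deviations of same-numbered replicates correlated at r = 0.48 to 0.81 over 8749 genes.

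Without single libraries, log2 differences in CD4 T cells ranged from -0.14 to 0.10 (S1pr1), -0.83 to 1.16 (Klf2) and -0.64 to 0.18 (Gpr183). In CD8 T cells they ranged from -0.030 to 0.24 (S1pr1), -0.12 to 0.24 (S1pr4), -0.51 to 0.69 (Klf2) and -0.42 to 0.47 (Gpr183). For the difference of effects they ranged from -0.0042 to 0.26 (S1pr1), -1.20 to 0.80 (Klf2), -0.17 to 0.28 (Klf3) and -0.25 to 0.73 (Gpr183). Between cell types they ranged from -1.07 to 0.75 (Klf2 in WT), -0.10 to 0.32 (S1pr4 in STAT3KO) and -1.01 to 0.45 (Klf2 in STAT3KO). Klf2 in CD8 T cells was 0.053 with the replicate block and 0.026 with either limma setting, and the S1pr5 difference of effects was 0.10 with limma on log2(RPKM + 1).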
